A study of Saccharomyces cerevisiae with 4 samples.

Results

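The oxysterol-binding protein homologues of the budding yeast Saccharomyces cerevisiae are a family of 7 lipid transfer proteins. Their genes, SWH1 (YAR042W, also called OSH1), OSH2 (YDL019C), OSH3 (YHR073W), KES1 (YPL145C, OSH4), HES1 (YOR237W, OSH5), OSH6 (YKR003W) and OSH7 (YHR001W), were taken by open reading frame name from a table of 6211 open reading frames. All 7 were present with a value on all 4 arrays. The family was selected on the high ratio of HES1 on these same arrays, which was known when the members were listed, so the ratios of its members are given as a description, and nothing is read from where they fall in a test.

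The arrays compared, by direct hybridisation of 2 dyes, total RNA of a wild-type strain and of a strain labelled GCN2c. Gcn2 is the kinase of the initiation factor eIF2 and is switched on by uncharged tRNA. The labels call GCN2c a mutant strain and the design text an overexpressing strain, and neither gives the allele, the promoter or the strain background. Both strains were grown to log phase in rich YPD medium at 28 °C, to an absorbance (Ab660) of 0.6, with no other treatment named. The dye Cy5 marked GCN2c RNA on replicates 1 and 3, and Cy3 marked it on replicates 2 and 4. The design text calls the 4 arrays biological replicates.

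Each oxysterol-binding homologue has a lipid-binding domain that closes over a single lipid. Some members carry sterol, some carry phosphatidylserine, and several exchange their cargo for phosphatidylinositol 4-phosphate (PI4P) at sites where the endoplasmic reticulum touches another membrane. Yeast cells live with any single member of the family and die when all are lost, so the proteins share an essential function. SWH1, OSH2 and OSH3 encode long proteins with additional membrane-targeting domains, and KES1, HES1, OSH6 and OSH7 encode short ones that are little more than the lipid-binding domain. The pairs SWH1 and OSH2, KES1 and HES1, and OSH6 and OSH7 descend from the whole-genome duplication of the yeast lineage.

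Values are the authors' log ratios, read as log2 of the strain labelled GCN2c over wild type. Neither the direction nor the log base is stated in the labels, and every sign below would change with the opposite direction. Replicates 2 and 4 were almost copies of each other: over 6136 genes their difference lay within 0.002 of a constant 0.004 for 95.7% of genes. The SD of this difference was 0.0638, against 0.852 between replicates 1 and 3. They differed by far less than other replicates did and were counted as 1 sample, so n = 3. Across genes, which are not independent replicates, Pearson's r was 0.449 between replicates 1 and 3 and 0.183 between replicates 1 and 2. The medians of the 4 arrays lay between -0.09 and -0.03. GCN2 itself stood at -0.33 ± 0.39 (SD, n = 3) and did not pass the threshold, so its spot gave no sign of the overexpression that the design text names.

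HES1 was high on every array, and the means of the other 6 genes lay near the bulk of all genes. HES1 encodes the short homologue most closely related to Kes1. Its log2 ratio was 2.58 on replicate 1, 2.90 on replicate 3, 3.72 on replicate 2 and 3.12 on replicate 4. No other member exceeded 1.07 on any array, so HES1 did not overlap with the rest of the family on any of them. The mean was 2.97 ± 0.42 (SD, n = 3), which is 7.82-fold if the logs are to base 2. Within single arrays HES1 ranked 40th of 6177 genes on replicate 1, 40th of 6057 on replicate 3, 18th of 6137 on replicate 2 and 28th of 6138 on replicate 4. Some single values of other members also lay away from the centre. OSH3 ranked 5919th on replicate 1 and 464th on replicate 2, and SWH1 ranked 5770th on replicate 1.

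**Figure D1:**
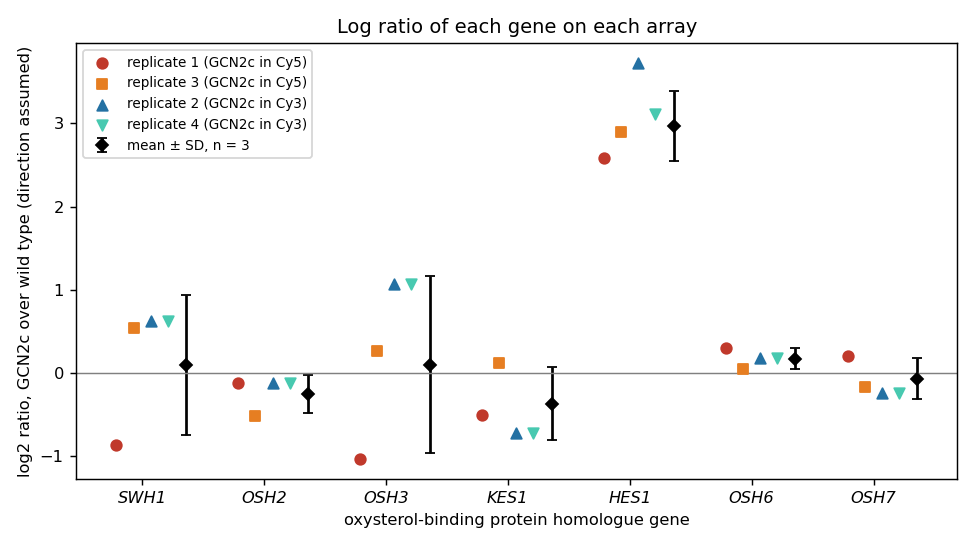
Log2 ratio of each of the 7 genes on each of the 4 arrays (symbols), with the mean ± SD over 3 replicates in black after averaging replicates 2 and 4. HES1 lies between 2.58 and 3.72 on every array, and the other 6 genes lie between -1.03 and 1.07.

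Of 6130 genes tested with limma, 126 (2.06%) passed an adjusted p of 0.05, 106 of them higher (1.73%) and 20 lower (0.326%). HES1 was among the 106 and the other 6 members were not called, which restates how the family was selected and supports nothing. By mean ratio HES1 stood 19th of all genes tested and 10th of the 106 that were called higher, and 219th with replicates 2 and 4 turned, where limma called 0 genes (250 at an unadjusted p under 0.05). Of the 18 genes with a higher mean, 9 were called, and 8 of the 9 that were not called lacked a value on some array or held a value beyond 16, which is implausible for a spot ratio. In 9 genes with values on all arrays, every replicate lay above the lowest HES1 replicate.

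**Figure D2:**
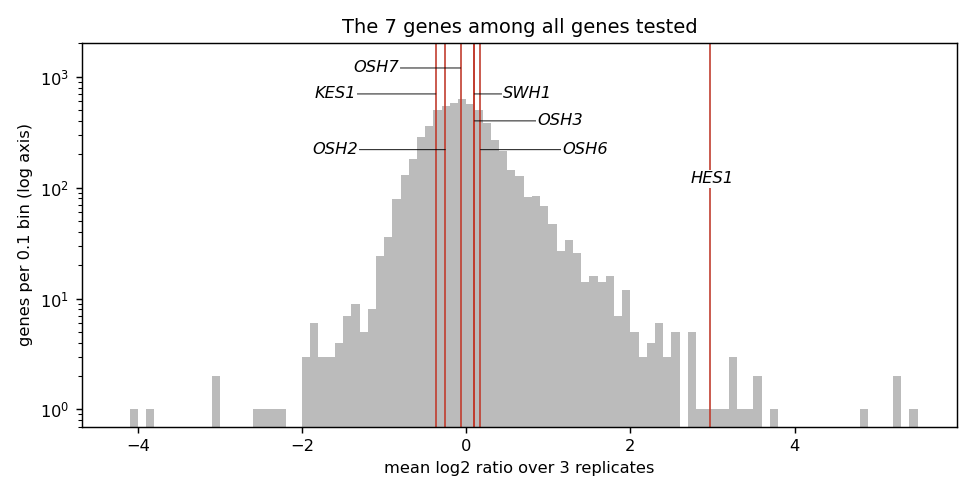
Mean log2 ratio over replicates of the genes tested, as a histogram with bins of 0.1 and a log count axis, with the 7 family genes as vertical lines. HES1 at 2.97 lies in the sparse upper tail, and the other 6 genes lie in the centre, between -0.37 and 0.17. The axis leaves out 5 genes.

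KES1, the duplicate partner of HES1, did not share its ratio. Kes1 exchanges sterol for PI4P and restrains Golgi function, and its loss lets cells live without the phosphatidylinositol transfer protein Sec14. KES1 stood at -0.51 on replicate 1, 0.12 on replicate 3, -0.73 on replicate 2 and -0.72 on replicate 4. Replicate 3 alone was above 0, and the mean was -0.37 ± 0.44 (SD, n = 3), the lowest of the family. Within arrays the ratio of HES1 exceeded that of KES1 by 3.34 ± 0.71 (SD, n = 3), with a gap of 3.09 on replicate 1, 2.78 on replicate 3 and 4.14 for the average of replicates 2 and 4. The sources used here do not give the spotted sequences, so whether the spots of these related genes can share signal was not tested.

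OSH6 and OSH7 moved little. Their proteins carry phosphatidylserine from the endoplasmic reticulum to the plasma membrane in exchange for PI4P. OSH6 was at 0.30 on replicate 1, 0.04 on replicate 3, 0.18 on replicate 2 and 0.18 on replicate 4, positive throughout but small. Its mean was 0.17 ± 0.13 (SD, n = 3), and 9.71% of genes had a smaller SD, which makes it the least variable member. OSH7 stood at 0.21 on replicate 1, -0.17 on replicate 3, -0.24 on replicate 2 and -0.24 on replicate 4, with a mean of -0.07 ± 0.24 (SD, n = 3). OSH7 thus changed sign between arrays of the same dye orientation. The 2 genes differed by 0.24 ± 0.17 (SD, n = 3) within arrays, OSH6 being the higher on all 3 replicates.

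The long homologues were the least repeatable members, apart from OSH2. SWH1, whose protein sits at the junction of nucleus and vacuole and at the Golgi, stood at -0.87 on replicate 1, 0.54 on replicate 3, 0.63 on replicate 2 and 0.63 on replicate 4. Replicate 1 alone was negative, and the mean was 0.10 ± 0.84 (SD, n = 3). OSH3, whose protein binds PI4P at contacts of the endoplasmic reticulum with the plasma membrane and activates the PI4P phosphatase Sac1 there, was at -1.03 on replicate 1, 0.26 on replicate 3, 1.07 on replicate 2 and 1.07 on replicate 4. Its mean was 0.10 ± 1.06 (SD, n = 3), so a mean near 0 hid values of opposite sign. A smaller SD was found in 94.4% of genes for OSH3 and in 90.2% for SWH1.

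OSH2, the duplicate partner of SWH1, encodes a protein of contacts between the endoplasmic reticulum and the cell cortex. It was at -0.12 on replicate 1, -0.52 on replicate 3, -0.12 on replicate 2 and -0.12 on replicate 4. All values were below 0, with a mean of -0.25 ± 0.23 (SD, n = 3), and 28.7% of genes had a smaller SD. SWH1 minus OSH2 was -0.75 on replicate 1, 1.06 on replicate 3 and 0.75 for the average of replicates 2 and 4, so the order of this pair was not stable.

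The table held a second row for SWH1. YAR044W, which the yeast R64 gene table lists as a synonym of SWH1, stood at -0.17 on replicate 1, 0.31 on replicate 3, 0.30 on replicate 2 and 0.30 on replicate 4. Like the row used for SWH1, it was negative on replicate 1 alone. Its mean was 0.15 ± 0.27 (SD, n = 3), a similar mean with a smaller spread. The rows of this 1 gene differed by -0.70 on replicate 1, 0.23 on replicate 3 and 0.33 for the average of replicates 2 and 4, which shows how far measurements of the same annotated gene can lie apart here.

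In order of mean ratio the family ran HES1, OSH6, OSH3, SWH1, OSH7, OSH2 and KES1. Below HES1 each neighbour in this order differed in mean from the next by less than the SD of at least 1 of the pair. These SDs are of single genes, not of differences within arrays, so they do not settle the order of the other 6. Within arrays OSH6 exceeded OSH7 on all 3 replicates, while SWH1 lay below OSH2 on replicate 1 and above it on the others. Their median was 0.02, against -0.06 for all genes tested, and each mean lay within 0.5 of 0. HES1 exceeded the median of the other 6 by 2.90 on replicate 1, 2.82 on replicate 3 and 3.39 for the average of replicates 2 and 4. Of the 7 genes, 4 had a mean above 0 and 3 below, and 3 (HES1, OSH6 and OSH2) kept 1 sign on all replicates.

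Replicates 1 and 3 share a dye orientation, so their difference is free of it. That difference, replicate 3 minus replicate 1, was 0.32 for HES1, 1.41 for SWH1 and 1.29 for OSH3, against a median size of 0.28 over all genes. The Cy5 mean minus the Cy3 mean was -0.68 for HES1 and -1.46 for OSH3, against a median size of 0.45 over all genes, and it was -0.01 for OSH6. Each HES1 value with GCN2c in Cy3 thus lay above each value with GCN2c in Cy5, and all were high as deposited. These values assume that the authors turned the arrays to 1 direction. If replicates 2 and 4 had not been turned, the mean of HES1 would be 0.69, with values of opposite sign in the 2 orientations.

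HES1 was also the 1 member for which the near-identical arrays disagreed. Replicate 4 minus replicate 2 was -0.61 for HES1 and between 0.003 and 0.004 for each of the other 6. Only 152 of the 6136 genes departed by more than 0.01 from the constant difference, and 13, HES1 included, departed by at least as much as HES1. Of the 126 genes past the threshold, 7 departed by more than 0.01. With replicate 2 standing alone for this hybridisation the mean of HES1 was 3.07, and with replicate 4 alone it was 2.87. Either array then enters as 1 of 3 values, so a small move was largely fixed in advance and is not read as stability.

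**Figure D3:**
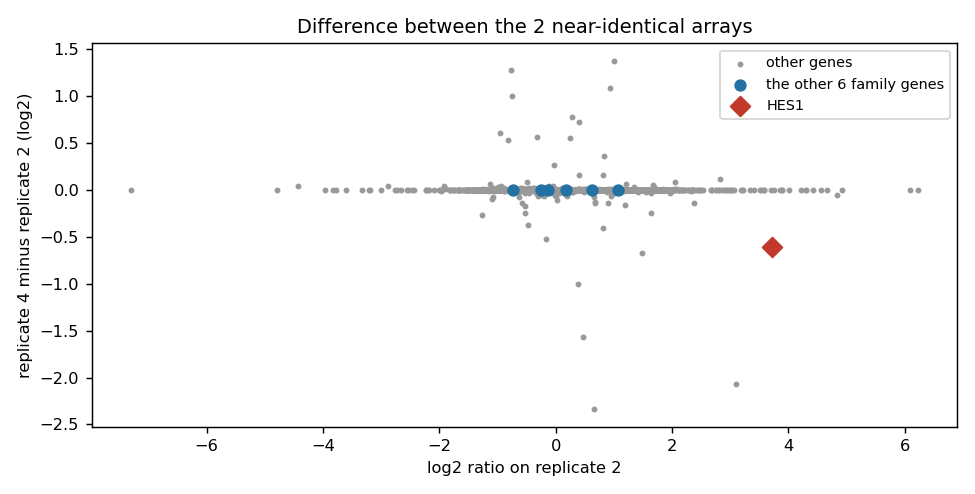
Log2 ratio on replicate 4 minus that on replicate 2, against the ratio on replicate 2, for the genes tested. Nearly all genes lie on a line just above 0, as do 6 of the family genes, while HES1 (diamond) lies at -0.61. The axis leaves out 1 gene.

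The genes next to HES1 on its chromosome did not share its ratio. The nearest annotated genes in the R64 gene table are DFR1, which encodes dihydrofolate reductase, and YOR238W. DFR1 averaged -0.18 ± 0.23 (SD, n = 3), its lowest value being -0.44 on replicates 2 and 4 and its highest 0.002 on replicate 1. YOR238W averaged 0.15 ± 0.35 (SD, n = 3), from -0.12 on replicate 1 to 0.55 on replicates 2 and 4. Of the 14 genes that flank the family members, 13 were tested. By limma 0 of these 13 were called (4 at an unadjusted p under 0.05, 0 by one-class SAM). Over all genes tested 20.7% had such a p. SAM called 5.49% of the 5997 genes with all 3 values, and nothing is read from the counts. The 13 means ran from -0.84 in ERP3, beside OSH2, to 0.38 in QCR10, beside OSH7.

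Among the 5 genes whose 3 replicate values lay nearest to those of HES1, by Euclidean distance over 5994 genes with values on all arrays, were ARG4, MSS11, KDX1 and ARG7. ARG4 and ARG7 encode enzymes of arginine synthesis. ARG4 lay at a distance of 0.61, with values between 3.12 and 3.34 over the arrays. MSS11, a transcription factor gene of filamentous growth, lay at 0.89, KDX1, which encodes a protein kinase related to the cell wall kinase Slt2, at 0.93, and ARG7 at 0.95. KDX1 was, like HES1, higher on replicates 2 and 4 (3.85) than on replicates 1 and 3 (1.99 and 2.33). Likeness over 3 values says only that these ratios are close.

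The other members had much nearer partners. They were MSA1 for SWH1 (distance 0.09), YMD8 for OSH2 (0.04), YGL081W for OSH3 (0.05), SNF11 for OSH6 (0.04) and SPC72 for OSH7 (0.02). For KES1 the nearest gene was GCN2 itself (0.13).

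Genes that make, move or regulate the lipids these proteins handle were set beside the family in 7 lists. The lists were chosen with results of these arrays known. Of 86 such genes tested, 1 was called higher by limma and 0 lower, against 1.73% and 0.326% of all genes. An unadjusted limma p under 0.05 was found in 9, against 20.7% of all genes. One-class SAM called 2, against 5.49% of the 5997 genes with all 3 values. No count of calls in these lists, in all or singly below, is read as a result about the list. The gene that rose was PRY2, which encodes a secreted protein that binds sterols. PRY2 stood at 2.21 on replicate 1, 2.01 on replicate 3, 1.40 on replicate 2 and 1.40 on replicate 4, a mean of 1.87 ± 0.42 (SD, n = 3; limma adjusted p = 0.0271), positive on all replicates. It did not pass with replicates 2 and 4 turned. Its relative PRY1 was at 0.04 ± 0.75 (SD, n = 3). The median of the 86 genes was -0.05 and that of all genes -0.06.

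Of 26 sterol synthesis genes 0 were called by limma (3 at an unadjusted p under 0.05, 0 by SAM). They lay evenly about 0, with 13 above and 13 below, and their median was -0.01. The 2 largest ratios belonged to ERG29, of the methyl sterol oxidase step, at 1.25 ± 0.87 (SD, n = 3; limma adjusted p = 0.148), and to ERG24, the sterol C-14 reductase gene, at -0.56 ± 0.17 (adjusted p = 0.181). By replicate the median of the list was 0.25 on replicate 1, 0.09 on replicate 3 and -0.18 for the average of replicates 2 and 4. It was thus positive on the arrays with GCN2c in Cy5 and negative on those with it in Cy3. The medians of all genes tested were -0.03, -0.05 and -0.09 in the same order. The lists of other sterol transfer proteins and of phosphatidylserine and flippase genes had the same signs as this list, and the remaining lists did not. ERG11, which encodes the lanosterol demethylase that azole drugs inhibit, stood at 0.55 ± 0.46 (SD, n = 3).

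Regulators and importers of sterol likewise had a median near 0, while single genes lay farther from it. Limma called 0 of 9 genes, with 0 below an unadjusted p of 0.05, and their median was 0.03. SAM also called 0, leaving out a gene without a value on replicate 3. UPC2, the transcription activator of sterol genes under sterol depletion, stood at 0.03 ± 0.29 (SD, n = 3), and its relative ECM22 at -0.28 ± 0.32 (SD, n = 3). The largest ratios were those of ROX1, a repressor of hypoxic genes, at -0.56 ± 0.59 (SD, n = 3), and of the sterol importer AUS1 at -0.56 ± 0.45 (SD, n = 3). Among 8 mannoprotein genes of cells grown without oxygen limma called 0 (1 at an unadjusted p under 0.05, 0 by SAM), with DAN3 at 0.97 ± 0.52 (SD, n = 3) and TIR1 at 0.59 ± 0.64 (SD, n = 3) the largest. Their median was 0.17, with -0.03, 0.28 and -0.18 on replicate 1, replicate 3, and replicates 2 and 4.

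Genes for sterol esters and acetates (7 tested, median -0.05) held 0 past the limma threshold (1 at an unadjusted p under 0.05, 0 by SAM), and the steryl ester hydrolase genes YEH1 and YEH2, at 0.59 ± 0.35 and -0.49 ± 0.28 (SD, n = 3), were farthest from 0. Of 9 genes for other sterol transfer proteins, PRY2 was the 1 that passed, and the list's median was 0.04.

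Genes for PI4P metabolism and membrane contacts, the partners in lipid exchange, had a median of -0.11. Limma called 0 of 19 (3 at an unadjusted p under 0.05, 1 by SAM). SFK1, which encodes a plasma membrane protein that works with the PI4P-making kinase Stt4, was the gene that SAM called, at 0.96 ± 0.22 (SD, n = 3; limma adjusted p = 0.0803), and SEC14, whose loss is bypassed by loss of Kes1, at -0.53 ± 0.24 (adjusted p = 0.209). SAC1, the PI4P phosphatase gene, stood at -0.22 ± 0.16 (SD, n = 3). Of 8 genes for phosphatidylserine synthesis, its decarboxylation and its flippases, limma called 0 (0 at an unadjusted p under 0.05, 0 by SAM). PSD2 was at 0.45 ± 0.38 and CHO1, phosphatidylserine synthase, at -0.43 ± 0.13 (SD, n = 3).

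**Figure D4:**
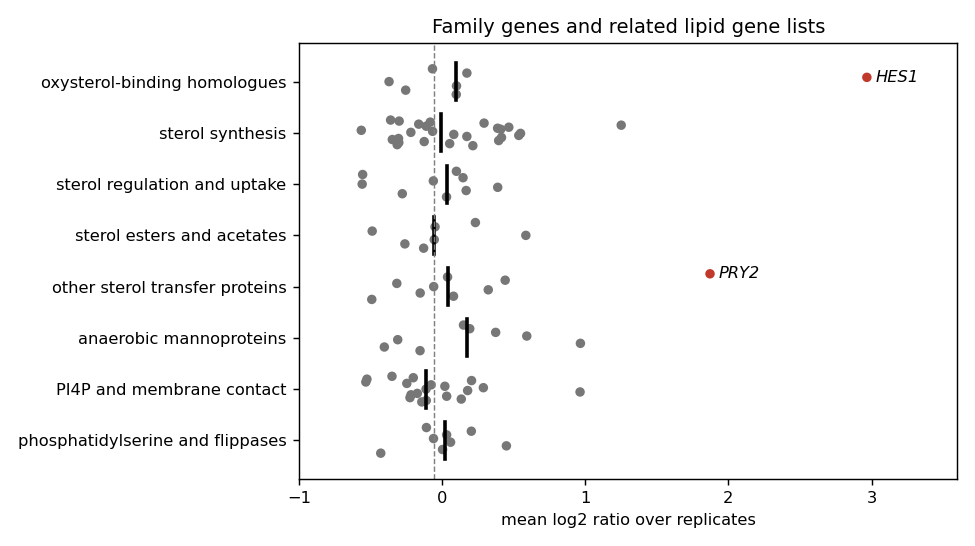
Mean log2 ratio over replicates of the family genes and of the tested genes of 7 related lists, 1 point a gene, red where past the limma threshold, with each list's median as a black bar and the median of all genes as a dashed line. HES1 at 2.97 and PRY2 at 1.87 stand apart, and every list median lies between -0.11 and 0.17.

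The mean of HES1 lay between 2.74 and 3.16 under 13 of 14 alternatives and was 0.69 with replicates 2 and 4 turned. As reported, HES1, OSH6, OSH3 and SWH1 had means above 0 and the other 3 members below, also with each array centred on its median or scaled to a common spread. Without replicate 3, and without replicates 2 and 4, 3 members were above 0 and 4 below. With replicates 2 and 4 turned, SWH1 (-0.32) and OSH3 (-0.61) were below 0 and KES1 (0.11) and OSH7 (0.10) above, so the signs of these members depend on the direction of those arrays.

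**Figure D5:**
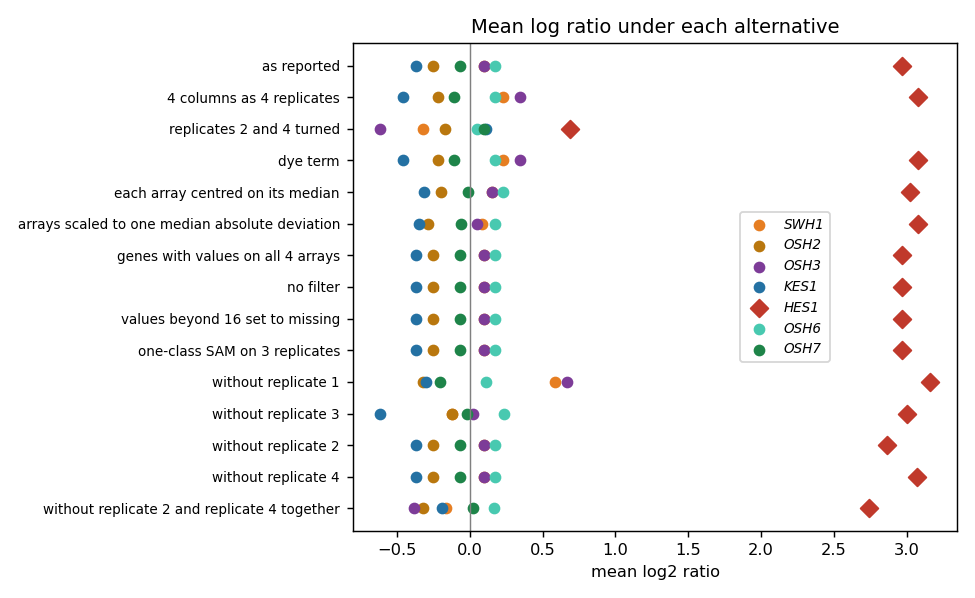
Mean log2 ratio of the 7 genes as reported and under each of 14 alternatives. HES1 (diamonds) lies between 2.74 and 3.16 in all but 1, where replicates 2 and 4 are turned and it lies at 0.69, while the other 6 stay between -0.62 and 0.67.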

How the data were processed

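Two-colour arrays of 30 µg total RNA per channel gave 1 value per open reading frame. The deposited values are log ratios made by the authors, taken here as log2. Per the labels' protocols, the authors removed defective spots and those whose background-subtracted signal was not above 2 times the local background in each channel. Scanner, normalization and direction are not given in the sources used here. Intensities were not used here, so the number of arrays limits the precision. Members and lists were chosen with earlier results of these data known. Replicates 2 and 4 were averaged as 1 sample. Limma 3.58.1 (R 4.3.3; no covariate, eBayes, two-sided) tested against 0 the mean of genes measured on 3 or 4 arrays, with Benjamini-Hochberg adjustment over all 6130 genes at 0.05, checked on simulated data. "Rose" means past that threshold. Separate cultures are stated only by the design text, so p-values measure the spread between these samples, which may be technical. Of the open reading frame names, 5662 matched the R64 gene table and 549 did not. Named genes were the members, their neighbours, GCN2, the nearest genes by distance (5 for HES1, 1 for each other member), and in each list those past the threshold or else the 2 largest. One gene that the rule names is not reported here. ERG11, UPC2, ECM22, SAC1 and PRY1 were added for their roles after their values were seen. One-class SAM, which the design text names, was run on the 3 replicates with all sign flips as an alternative. It covered the 5997 genes with all 3 values. Other alternatives changed the replicates, direction, dye term, centring, scaling and filters.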

Additional observations from a re-analysis of the deposited data

How the results depend on the processing

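The mean of HES1 was above 0 under all 14 alternatives. Its sign and its calls follow from its selection and are not read as stability. With replicates 2 and 4 turned its mean was 0.69, and 0 members and 0 genes were past the limma threshold. Leaving out replicate 1, 2, 3 or 4 moved HES1 between 2.87 and 3.16 and the count of genes from 126 to between 74 (without replicate 3) and 148 (without replicate 1). The count of genes was 1062 with the 4 columns as 4 replicates, 590 with a dye term, 191 with genes on all 4 arrays, 329 by one-class SAM, and 353 without replicates 2 and 4. The dye term was fitted to genes with all 3 values and takes its spread from replicates 1 and 3 alone. The causes were not tested. Of 84 values of the other 6 members, 83 moved by less than 1 SD, and KES1 went to 0.11 with replicates 2 and 4 turned. The SD here is that of each gene's own 3 values, and most alternatives reuse or drop these same values. Small moves were therefore largely fixed in advance and are not read as stability. PRY2, examined after its value was seen, passed under 13 of 14 and was 0.94 with replicates 2 and 4 turned. It was picked because it passed, so this is not read as stability either. Each array compares both strains directly, so its log ratio already pairs them, and no further pairing was used. With no intensities, signal over background was not judged.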
